A study of Mus musculus with 6 samples.

Results

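The 9 genes described here encode the hormone, enzymes and receptor of the renin-angiotensin system and peptidases of the tubular brush border: *Ren1*, *Agt*, *Ace*, *Agtr1a*, *Enpep*, *Anpep*, *Mme*, *Dpp4* and *Mep1a*. They were taken by symbol from the 55367 symbols listed for each library, and all 9 passed the filter on low values that left 14862 genes for testing. RNA was sequenced from kidney cells bound by Dolichos biflorus lectin (DBA), a plant lectin that attaches to collecting duct epithelium, in 6 libraries of 3 groups with 2 libraries each. WT libraries came from mice of WT genotype given saline, ADPKD libraries from Pkd1-/- mice given saline, and ADPKD+MMPP libraries from Pkd1-/- mice given mmpp, all at the Day115 time point. MMPP is a melanin-like nanoparticle chelated with manganese and coated with polyethylene glycol, which was injected into a vein. *Pkd1*, which encodes polycystin-1, was deleted in male Pkd1 fl/fl;Cre/Esr1+ mice by tamoxifen given after birth, through a Cre whose promoter the labels and methods do not name, and loss of this gene gives a model of autosomal dominant polycystic kidney disease (ADPKD). The methods describe tamoxifen for the male mice without saying whether the WT mice of these libraries received it. The labels name the cells as kidney tubular epithelium, and do not say whether the libraries of a group came from separate animals, so p-values measure only the spread between these samples, which may be technical.

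The renin-angiotensin system is a cascade that sets blood pressure, salt retention and kidney perfusion. Renin, released by juxtaglomerular cells at the glomerular arteriole, cuts angiotensinogen to angiotensin I, angiotensin-converting enzyme turns this into angiotensin II, and angiotensin II acts through the type 1 receptor. Membrane peptidases of the proximal tubule brush border and of the glomerulus then trim the angiotensins and many other peptides. In polycystic kidneys this cascade has long been studied within the kidney itself, beside its systemic form.

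Levels are given as FPKM, the fragments of a gene scaled to its length and to the size of the library, so that levels of different genes can be set side by side. Changes are log2 fold changes of FPKM + 1 with their standard error (SE) from limma, a linear model fitted across all tested genes and all 6 libraries. A gene is said to have risen or fallen where the fold change was at least 1.5 and the unadjusted P was under 0.05, and the adjusted p is that of Benjamini and Hochberg over all 14862 genes. The depth was from 30.58 to 33.08 M reads in the WT and ADPKD libraries and only 11.81 and 10.91 M reads after MMPP, as read from the steps of single reads in the low FPKM values. Odd read numbers made up from 33.49% to 34.57% of these values in WT and ADPKD, against 8.237% and 7.717% in ADPKD+MMPP. The treated libraries therefore differ from the others in depth and in the steps of their low values, for a reason that was not tested. Since they belong to 1 condition only, this difference and the treatment cannot be told apart. *Pkd1* itself had a mean of 17.47 ± 0.38 FPKM in WT, 8.272 ± 0.898 FPKM in untreated ADPKD and 4.164 ± 0.247 FPKM after MMPP (SD, n = 2), and fell in ADPKD, where the mean was 2.11-fold under that of WT (SE of the log2 change 0.13, limma adjusted p = 0.00566).

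The promoters of the genes at the head of the cascade are shown because the study concerns CREB, a factor that binds cAMP response elements (CRE). The paper counted as CREB targets the genes with such elements in promoters, enhancers or both. RefSeq promoter windows (GRCm38.p6) were found for 8 of the 9 genes, all but *Agtr1a*, in 11 windows, and the 250 bases before each start were searched on both strands. The full CRE, TGACGTCA, stands in 1.55% of all 32817 windows and in 0 of these 11. Its shorter core TGACG, which also lies inside the full CRE, stands in 17.7% of all windows and again in 0 of these 11. Enhancers and bases farther upstream were not searched, so these counts do not tell whether the genes are CREB targets. The letters TATAAA of a TATA box stand in 12.4% of all windows and in 5 of these 11, those of *Ren1*, *Agt*, *Ace*, *Enpep* and *Dpp4*, at 29, 30, 31, 52 and 227 bases before the start. In the sequences of *Ren1* (chr1:133350633-133350662, plus strand), *Agt* (chr8:124569707-124569956, minus strand) and *Ace* (chr11:105967698-105967944, plus strand), given 5′ to 3′ along the gene, capitals mark TATAAA or its reverse complement TTTATA, which in each of them lies close to 30 bases before the start. For *Ren1* a stretch of 30 bases is given, because the GENCODE vM21 model of the gene begins upstream of the RefSeq start.
Ren1: atacatggtgtgTATAAAagaaggctcagg
Agt: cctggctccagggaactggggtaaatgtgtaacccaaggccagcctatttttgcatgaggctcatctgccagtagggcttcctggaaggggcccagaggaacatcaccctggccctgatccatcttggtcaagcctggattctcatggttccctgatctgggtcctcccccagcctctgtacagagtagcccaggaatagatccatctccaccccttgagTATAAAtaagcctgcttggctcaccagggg
Ace: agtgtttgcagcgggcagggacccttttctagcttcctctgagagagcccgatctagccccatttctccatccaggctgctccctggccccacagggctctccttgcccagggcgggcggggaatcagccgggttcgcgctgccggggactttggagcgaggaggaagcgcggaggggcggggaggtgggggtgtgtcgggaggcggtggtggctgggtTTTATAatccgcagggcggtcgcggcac

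In WT cells the most abundant of the 9 transcripts were those of *Enpep* and *Agtr1a*, at a mean of 97.81 ± 29.2 and 75.62 ± 11.6 FPKM (SD, n = 2), whose libraries overlapped. *Dpp4* followed at 35.12 ± 10.4 FPKM, apart from both of its neighbours. *Mme*, *Ren1* and *Ace* lay between 9.001 and 11.27 FPKM, and *Agt*, *Anpep* and *Mep1a* between 4.249 and 6.254 FPKM, with overlapping neighbours inside each of these sets. In ADPKD the order changed, with *Agt* first at 32.78 ± 17.7 FPKM, but neighbouring genes overlapped from *Agt* down to *Mme*, and the spread between the ADPKD libraries does not fix the order. In ADPKD+MMPP *Ren1* stood first at 64.69 ± 3.16 FPKM, ahead of *Dpp4* at 23.08 ± 0.382 and *Enpep* at 16.75 ± 2.37, each apart from the next. This order holds for FPKM as deposited only, because values of the treated libraries moved with the transcript annotation of each gene, as described below, and genes of different annotation cannot be ranked by them.

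**Figure D1:**
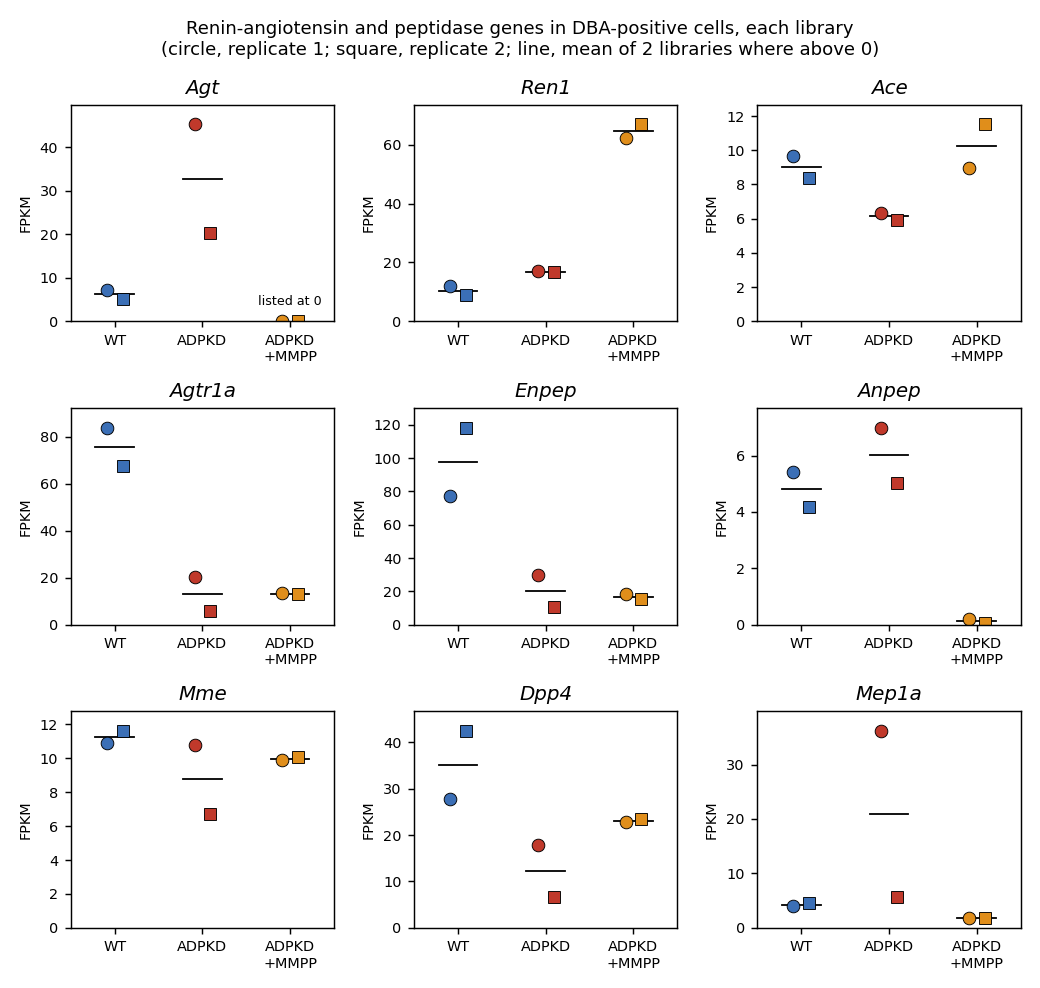
FPKM of each of the 9 genes (vertical axes, linear, from 0) in the 2 libraries of WT, ADPKD and ADPKD+MMPP (horizontal axis), with circles for replicate 1, squares for replicate 2 and lines for means. *Agtr1a* and *Enpep* stand highest in both WT libraries, *Ren1* in both treated libraries at 62.46 and 66.93 FPKM, and *Agt* in both ADPKD libraries at 45.31 and 20.26 FPKM.

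The first comparison, ADPKD against WT, asks how these genes stand in cystic kidneys. Of the 9 genes, 2 rose (*Agt* and *Ren1*), 3 fell (*Agtr1a*, *Enpep* and *Dpp4*) and 4 did not pass the test, so that the substrate and the enzyme that opens the cascade were higher while the receptor and a pair of membrane peptidases were lower. Over all tested genes 26.7% were called in this comparison, 14.2% higher and 12.5% lower. For 8 of the 9 genes both libraries of one group lay beyond both of the other, as they did for 67.0% of all tested genes. The median log2 change was -0.36 over the 9 genes and 0.03 over all tested genes.

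*Agt* encodes angiotensinogen, the only known precursor of the angiotensins, which the liver makes for the circulation and the proximal tubule makes locally (GRCm38 chr8:124556534-124569706, minus strand). Its level was 7.281 and 5.227 FPKM in WT and 45.31 and 20.26 FPKM in ADPKD. Both ADPKD libraries stood above both WT libraries, with means 5.24-fold apart (log2 2.13, SE 0.37, limma adjusted p = 0.0128). Markers of the proximal tubule were split. Of 15 markers 4 were called higher, among them the endocytic receptor *Lrp2* (log2 1.39) and the transcription factor *Hnf4a* (log2 1.12), and 0 were called lower. The remaining 11 were not called and went both ways, from *Slc34a1* (log2 -1.36) to *Slc27a2* (log2 1.15). The summed FPKM of these 15 markers overlapped between the groups, at 139.1 and 60.44 in WT and 187.6 and 56.06 in ADPKD. The part of proximal tubule cells in the change of *Agt* was not tested. In bulk RNA, fewer cells of a type and less RNA per cell cannot be told apart, which holds for each change given here.

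*Ren1* encodes renin, the protease that starts the cascade and that juxtaglomerular cells make in the adult kidney, although collecting duct principal cells are known to make it too (chr1:133350510-133360325, plus strand). Some mouse strains carry a near-identical copy, *Ren2*, whose reads would be counted on *Ren1*, and the labels do not name the strain. *Ren1* stood at 12.04 and 8.791 FPKM in WT and at 16.99 and 16.73 FPKM in ADPKD. Both ADPKD libraries were above both WT libraries, and the means differed 1.62-fold (log2 0.66, SE 0.17, limma adjusted p = 0.0363). The call was lost when WT replicate 2 was left out (log2 0.45), when libraries were scaled to a common FPKM sum (log2 0.58) and when they were centred by transcript annotation as described below for MMPP (log2 0.55). *Akr1b7*, a marker that juxtaglomerular cells share with *Ren1*, did not follow it, at 2.89 and 1.61 FPKM in WT and 1.68 and 0.609 FPKM in ADPKD (log2 -0.62, SE 0.30, limma adjusted p = 0.178), and it was called lower after centring (log2 -0.76).

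*Ace* encodes angiotensin-converting enzyme, found on endothelium and on the proximal tubule brush border (chr11:105967945-105989964, plus strand). It was measured at 9.638 and 8.364 FPKM in WT and at 6.33 and 5.923 FPKM in ADPKD. Both ADPKD libraries were lower, with WT means 1.47 times those of ADPKD, yet the change stayed under the fold threshold (log2 -0.49, SE 0.16, limma adjusted p = 0.0712).

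*Agtr1a* encodes the main type 1 angiotensin II receptor of rodents (chr13:30336441-30382867, plus strand). It had 83.83 and 67.41 FPKM in WT, and 20.33 and 5.889 FPKM in ADPKD. Both WT libraries were far above both ADPKD libraries, with means 5.77-fold apart (log2 -2.65, SE 0.50, limma adjusted p = 0.0161). The 2 ADPKD libraries themselves differed 3.45-fold, and the log2 change ranged from -3.47 without ADPKD replicate 1 to -1.84 without replicate 2, as single libraries were left out. Among all tested genes the profiles closest to that of *Agtr1a* over the 6 libraries were those of *Nrp1*, *Chrm3* and *Serpini1*, at root mean square differences of 0.11, 0.17 and 0.18 on the log2 scale after centring each profile on its mean.

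*Enpep* encodes aminopeptidase A, which removes the first residue of angiotensin II and sits on podocytes and the proximal tubule (chr3:129269175-129332720, minus strand). It was at 77.18 and 118.4 FPKM in WT and at 29.77 and 10.52 FPKM in ADPKD. The groups did not overlap, and the WT mean was 4.86 times that of ADPKD (log2 -2.36, SE 0.48, limma adjusted p = 0.0194). Without ADPKD replicate 1 the log2 change was -3.07 and without replicate 2 it was -1.65, both called. The profiles closest to that of *Enpep* were those of *Podxl*, *Crb2* and *Snx31*, at differences of 0.22, 0.23 and 0.24, and *Podxl* is a surface sialomucin used as a podocyte marker.

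*Dpp4* encodes dipeptidyl peptidase, which inactivates incretins and other peptides and is found on the brush border and on podocytes (chr2:62330073-62412231, minus strand). It stood at 27.77 and 42.46 FPKM in WT and at 17.81 and 6.59 FPKM in ADPKD. Both ADPKD libraries were lower, with the WT mean 2.88 times that of ADPKD (log2 -1.57, SE 0.44, limma adjusted p = 0.0497). Without WT replicate 2 the call was lost (log2 -1.27), and it was kept without ADPKD replicate 1 (log2 -2.22) and without ADPKD replicate 2 (log2 -0.91). Its closest profiles were those of *Iqgap2*, *Steap4* and *Hs3st3a1*, at differences of 0.16, 0.19 and 0.21.

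Podocyte markers were lower in ADPKD, as *Agtr1a*, *Enpep* and *Dpp4* were, and so were markers of intercalated cells, given below. All 5 podocyte markers of the list fell in ADPKD, and their summed FPKM was 899.6 and 1231 in WT and 205 and 90.83 in ADPKD. ADPKD replicate 2 was the lowest of these 4 libraries, as it was for each of the 3 genes. It was also lowest for the sums of intercalated cell, principal cell, proximal tubule, and smooth muscle, pericyte and mesangium markers. It was not lowest for the endothelial, fibroblast or leukocyte sums, so this low library is not particular to podocyte markers. Between the WT libraries *Enpep* and *Dpp4* were higher in replicate 2, as were the podocyte, principal cell, intercalated cell and fibroblast sums. *Agtr1a* was higher in replicate 1, as were the sums of the other cell types. Markers of smooth muscle, pericytes and mesangium, cells in which the type 1 receptor is also found, summed to 194.5 and 150.7 FPKM in WT and 92.64 and 83.55 FPKM in ADPKD, and 4 of the 5 tested fell. Endothelial markers summed to 826.1 and 682.1 FPKM against 509.4 and 534.1, with 5 of 6 lower and 1 higher. The part of these cells in the changes of the 3 genes was not tested.

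Other cell types differed as well between these groups. Markers of intercalated cells, a cell type of the collecting duct, summed to 222.9 and 233.3 FPKM in WT and 50.66 and 22.59 FPKM in ADPKD, and all 6 fell. Principal cell markers, which check the label of DBA-positive collecting duct cells, summed to 2079 and 2776 FPKM in WT and 2482 and 941.8 FPKM in ADPKD, where 1 of 7 tested was called and *Avpr2* was at 0 in a library. Leukocyte markers summed to 50.32 and 49.79 FPKM in WT against 364.3 and 426.3 in ADPKD, with 5 of 6 tested higher, 1 lower and *Cd3e* at 0 in a library, and fibroblast markers to 13.85 and 18.12 FPKM against 81.81 and 108.4, with 4 of 5 higher. Their part in the changes of the 9 genes was not tested.

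**Figure D2:**
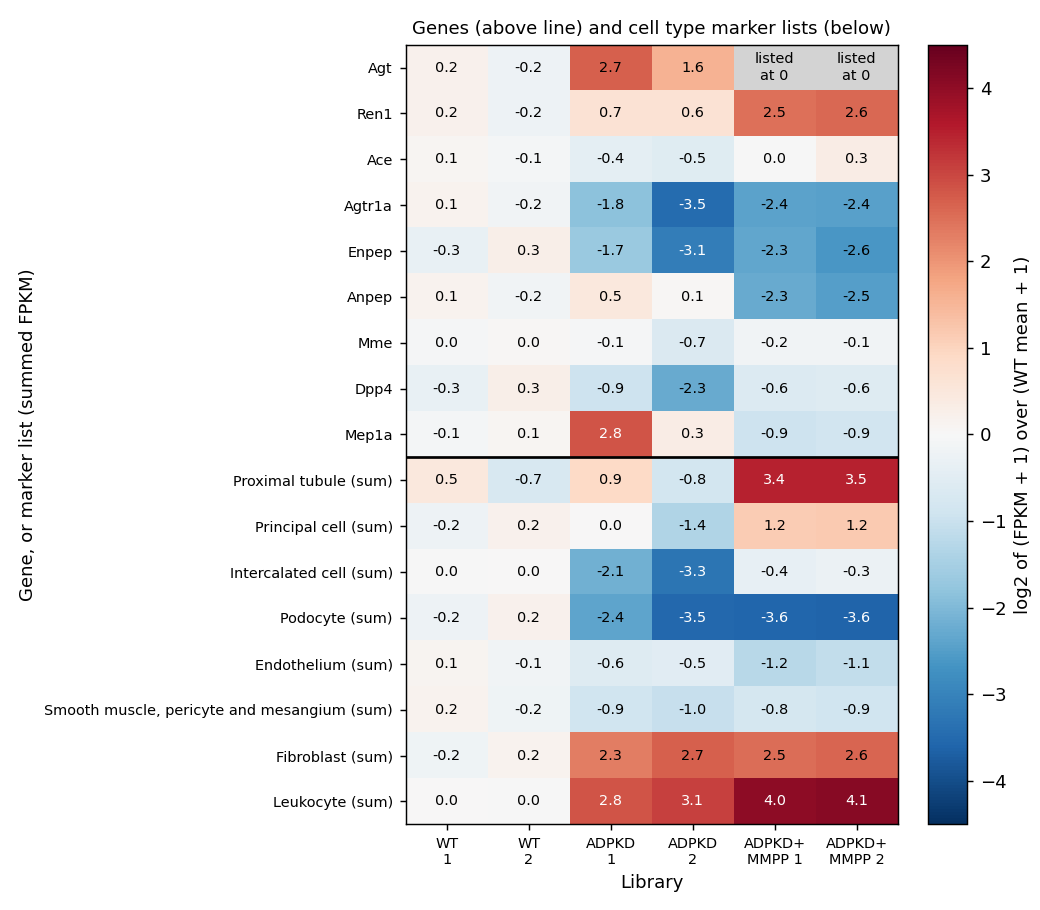
Heat map of the 9 genes (above the line) and of summed cell type markers (below it) in each library, as log2 of FPKM + 1 over the WT mean + 1, with grey cells where a gene is listed at 0. *Agtr1a*, *Enpep*, *Dpp4* and the podocyte and intercalated cell markers share low values in both ADPKD libraries, the lower in replicate 2. The proximal tubule, principal cell, and smooth muscle, pericyte and mesangium sums are also lower in ADPKD replicate 2 than in replicate 1. The proximal tubule sum is highest in both treated libraries.

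The remaining peptidases did not pass the test. *Mme* encodes neprilysin, a peptidase of podocytes and the brush border that degrades many vasoactive peptides (chr3:63241537-63386030, plus strand). It was at 10.92 and 11.62 FPKM in WT and at 10.77 and 6.732 FPKM in ADPKD (log2 -0.36, SE 0.21, limma adjusted p = 0.251), and it was called lower when ADPKD replicate 1 was left out (log2 -0.67). *Anpep* encodes aminopeptidase N, an abundant brush-border enzyme (chr7:79821803-79861059, minus strand). Its 5.426 and 4.179 FPKM in WT overlapped with 6.997 and 5.039 FPKM in ADPKD (log2 0.27, SE 0.20, limma adjusted p = 0.351).

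*Mep1a* encodes the alpha subunit of meprin A, a metalloprotease of the brush border (chr17:43474324-43502812, minus strand). In WT it was at 3.922 and 4.576 FPKM, and in ADPKD at 36.18 and 5.675 FPKM. Replicate 1 of ADPKD alone carried the higher mean, 6.38 times replicate 2, and no call was made (log2 1.59, SE 0.75, limma adjusted p = 0.17). Without ADPKD replicate 1 the log2 change was 0.35, and without replicate 2 it was 2.83 and was called. That library also had the higher proximal tubule sum of the ADPKD pair, 187.6 against 56.06 FPKM. The part of proximal tubule cells in this value was not tested.

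The second comparison, ADPKD+MMPP against ADPKD, asks what differed after the nanoparticle. *Ren1* and *Ace* were called higher, *Anpep* and *Mep1a* were called lower, *Agt* was listed at 0 in both treated libraries, and *Agtr1a*, *Enpep*, *Mme* and *Dpp4* did not pass the test. These are 5 of 9 genes, 2 higher and 3 lower with *Agt*, but 70.9% of all tested genes were called here, 27.9% higher and 43.0% lower, so that a count of 5 of 9 is no result about these genes. Of all called genes 39.3% were higher, a share that became 54% under quantile normalization and 58.2% after centring by transcript annotation. Libraries did not overlap for 6 of the 9 genes and for 87.8% of all tested genes. The median log2 change was 0.20 over the 9 genes and -0.36 over all tested genes. All figures for the 9 genes together take *Agt* at its listed 0, which can be a missing estimate, as described below.

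Across the transcriptome the change after MMPP followed an annotation property of each gene, the share of its exon bases that lie in exactly 1 of its annotated transcripts. Protein-coding genes with a share of up to 10% had a median log2 change of -1.71, those from 30% to 40% a median of -1.04, those from 70% to 80% a median of 0.63, and those above 90% a median of 1.09. The 9 genes covered this range, from 8.61% for *Anpep*, 15.4% for *Mep1a*, 32.2% for *Enpep* and 34.5% for *Ace* to 67.7% for *Mme*, 75.2% for *Dpp4*, 78.7% for *Agtr1a*, 90.9% for *Ren1* and 100% for *Agt*. The change of each of the 9 genes other than *Agt* against the treated group is therefore given also after centring, in which genes were sorted into 20 bins by this share and the median of each bin was set to be equal in every library.

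**Figure D3:**
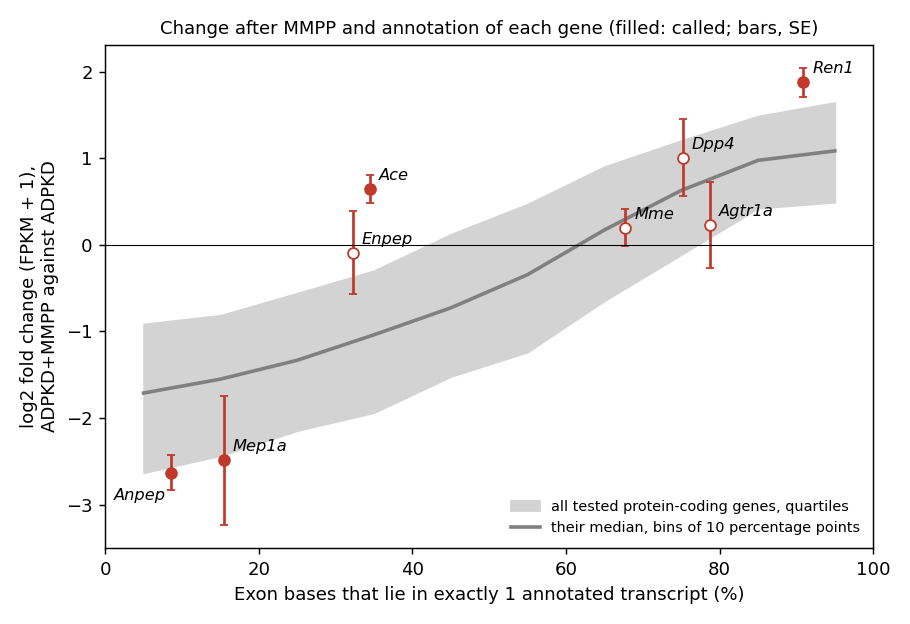
Log2 fold change of FPKM + 1 in ADPKD+MMPP against ADPKD (vertical axis, bars are SE, filled points are called) against the share of exon bases in exactly 1 annotated transcript (horizontal axis, %), with the median and quartiles of all tested protein-coding genes in grey and *Agt*, listed at 0, left out. *Anpep* and *Mep1a* lie low where the median of all genes is low, with *Mep1a* just under the lower quartile. *Ren1* lies high where the median is high. *Ren1*, *Ace* and *Enpep* lie above the upper quartile of genes with a like share.

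*Ren1* had 62.46 and 66.93 FPKM in the treated libraries against 16.99 and 16.73 FPKM in ADPKD. The groups were well apart, with means 3.84-fold apart (log2 1.88, SE 0.17, limma adjusted p = 0.000197). After centring by annotation the change was smaller and still called (log2 0.79, SE 0.17, limma adjusted p = 0.00585). *Akr1b7* also rose, to 4.83 and 5.15 FPKM (log2 1.53, SE 0.30, limma adjusted p = 0.00443). After centring *Akr1b7* was no longer called (log2 0.37). Both genes of the juxtaglomerular list were thus called higher as deposited and *Ren1* alone after centring, and the part of juxtaglomerular cells in the change was not tested.

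*Ace* was at 8.987 and 11.51 FPKM after MMPP against 6.33 and 5.923 FPKM in ADPKD. Both treated libraries were higher, with means 1.67-fold apart (log2 0.65, SE 0.16, limma adjusted p = 0.0105). The call was lost without treated replicate 2 (log2 0.49) and under scaling to a common FPKM sum (log2 0.37), while centring by annotation gave a larger change (log2 1.78, SE 0.17, limma adjusted p = 0.000237). The endothelial marker sum was 320.5 and 349.1 FPKM after MMPP against 509.4 and 534.1 in ADPKD, with 3 of 6 markers lower and 0 higher, and 6 of 6 lower after centring. The proximal tubule sum was 1099 and 1105 FPKM against 187.6 and 56.06, with 9 of 15 markers higher and 3 lower, and 12 higher and 1 lower after centring. The part of either cell type in the change of *Ace* was not tested.

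*Agt* was listed at 0 in both treated libraries, where 3 reads would give 0.134 and 0.145 FPKM. It has 1 annotated transcript, and so do 472 of the 5897 protein-coding genes with at least 5 FPKM in each WT and ADPKD library. Of these 5897 genes 16 were listed at 0 in both treated libraries, and of the 472 there were 4, *Agt* among them. The 16 include *Srp68* of the signal recognition particle and *Rpl17* of the ribosome, which cells in general need and which the WT and ADPKD libraries held at 23.013 to 29.802 FPKM and 222.556 to 400.114 FPKM. A value of 0 in these libraries can therefore be a missing estimate, and no fold change is given for *Agt*. Of the 15 proximal tubule markers 9 were higher and 3 lower after MMPP than in ADPKD. The transcription factor *Hnf4a*, at 0.0351 and 0 FPKM after MMPP, was among the lower ones.

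*Anpep* was at 0.2048 and 0.04433 FPKM in the treated libraries, which stand for about 10 and 2 reads, against 6.997 and 5.039 FPKM in ADPKD. Both treated libraries lay far below, and the fitted change depends on the constant added before taking logs, with log2 -2.63 (SE 0.20, limma adjusted p = 0.000109) for FPKM + 1 and log2 -4.85 for FPKM + 0.1. After centring by annotation the change was -0.52 and not called. The gene overlaps an unclassified gene model, *Gm44974*, on the same strand.

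*Mep1a* stood at 1.767 and 1.859 FPKM after MMPP, about 72 and 70 reads, against 36.18 and 5.675 FPKM in ADPKD. Both treated libraries were lower (log2 -2.49, SE 0.75, limma adjusted p = 0.0239). The call was lost under quantile normalization (log2 -1.98), after centring by annotation (log2 -0.62) and when either treated replicate was left out (log2 -2.46 and -2.51). Its size depended on the ADPKD library used, with log2 -1.25 without ADPKD replicate 1 and -3.72 without replicate 2, both called.

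*Agtr1a* had 13.32 and 13.09 FPKM after MMPP, inside the range of the ADPKD libraries (log2 0.23, SE 0.50, limma adjusted p = 0.693). Which ADPKD library was used decided its direction, since it was called higher without ADPKD replicate 1 (log2 1.04), called lower without replicate 2 (log2 -0.59), and negative after centring by annotation (log2 -0.62) and under a common FPKM sum (log2 -0.05). *Enpep*, at 18.43 and 15.07 FPKM, also lay inside the ADPKD range (log2 -0.09, SE 0.48, limma adjusted p = 0.869), but was called higher after centring by annotation (log2 1.39, SE 0.44, limma adjusted p = 0.0303). *Mme*, at 9.892 and 10.08 FPKM, overlapped with ADPKD too (log2 0.20, SE 0.21, limma adjusted p = 0.409, and log2 0.06 after centring). *Dpp4*, at 22.81 and 23.35 FPKM, was above both ADPKD libraries without passing the test (log2 1.01, SE 0.44, limma adjusted p = 0.0799), and was called without ADPKD replicate 1 (log2 1.67) and with TMM factors (log2 1.20). The change of *Dpp4* was smaller and not called without ADPKD replicate 2 (log2 0.36), after centring (log2 0.53) and under a common FPKM sum (log2 0.72).

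Podocyte markers did not rise with treatment. Their summed FPKM was 89.72 and 87.23 after MMPP, 3 of 5 were lower than in ADPKD and 0 higher, and 5 of 5 were lower after centring. Proximal tubule markers summed to 1099 and 1105 FPKM, 9 of 15 higher and 3 lower, or 12 higher and 1 lower after centring, while *Anpep* and *Mep1a*, peptidases of the same segment, were called lower before centring. Principal cell markers summed to 5417 and 5441 FPKM (4 of 7 higher and 2 lower, but 1 higher and 1 lower after centring), intercalated cell markers to 177.5 and 188.4 FPKM (6 of 6 higher, also after centring), and leukocyte markers to 837.9 and 868.5 FPKM (3 of 6 higher, 3 lower, and 2 higher and 1 lower after centring). Smooth muscle, pericyte and mesangial markers summed to 98.93 and 91.18 FPKM (2 of 5 higher, 2 lower, and 3 higher and 2 lower after centring), and fibroblast markers to 96.36 and 104.4 FPKM (1 of 5 higher, 2 lower, and 0 higher and 3 lower after centring). The part of these cells in the changes of the 9 genes was not tested.

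**Figure D4:**
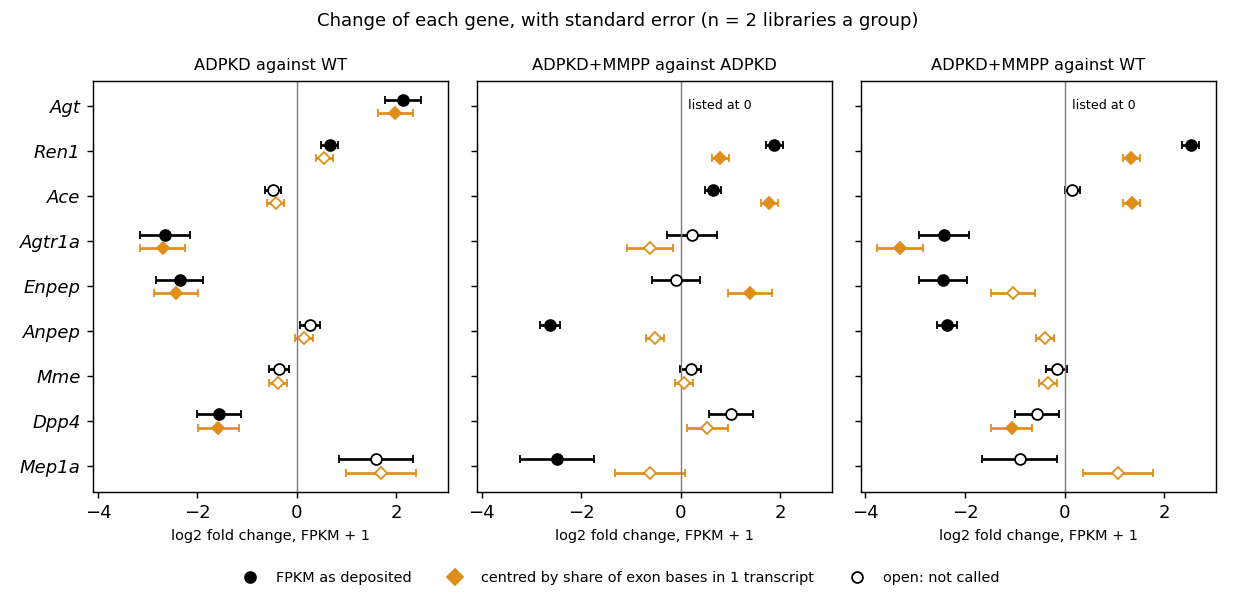
Log2 fold change of FPKM + 1 (horizontal axes, bars are SE, n = 2 libraries a group) of the 9 genes in the 3 comparisons, with *Agt* marked as listed at 0 and no value drawn for it against the treated libraries, for FPKM as deposited (black circles) and after centring by transcript annotation (orange diamonds), with open symbols for changes not called. In ADPKD against WT both values of each gene lie close together, and against the treated libraries those of *Anpep*, *Mep1a*, *Enpep*, *Ace* and *Ren1* lie farthest apart, followed by those of *Agtr1a*.

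The third comparison, ADPKD+MMPP against WT, shares its libraries with the other 2 and is given for the distance of treated cells from WT cells. *Ren1* was higher by log2 2.54 (SE 0.17, limma adjusted p = 6.18e-05), with means 6.21-fold apart, and stayed higher after centring (log2 1.34). *Agtr1a* was lower by log2 -2.42 (SE 0.50, limma adjusted p = 0.00554) and stayed lower after centring (log2 -3.31), with the WT mean 5.73 times the treated mean. *Enpep* was lower (log2 -2.45, SE 0.48, limma adjusted p = 0.00423), a call lost after centring (log2 -1.04). The receptor was thus at 13.32 and 13.09 FPKM after MMPP against 83.83 and 67.41 FPKM in WT. The podocyte markers, also lower in ADPKD than in WT, were at 89.72 and 87.23 FPKM in sum against 899.6 and 1231, with all 5 lower.

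*Anpep* was lower than in WT (log2 -2.36, SE 0.20, limma adjusted p = 0.000134), a call that centring removed (log2 -0.39). *Ace* overlapped with WT (log2 0.16, SE 0.16, limma adjusted p = 0.368) and was called higher after centring (log2 1.35), whereas *Dpp4* was not called (log2 -0.55, SE 0.44, limma adjusted p = 0.286) and was called lower after centring (log2 -1.06). *Mep1a* did not pass the test (log2 -0.90, SE 0.75, limma adjusted p = 0.305), and its sign turned after centring (log2 1.07). *Mme* was not called (log2 -0.16, limma adjusted p = 0.512), nor was it after centring (log2 -0.34). With *Agt* listed at 0, 1 of the 9 genes was called higher and 4 lower, against 73.9% of all tested genes called, 30.1% higher and 43.8% lower. Libraries did not overlap for 8 of the 9 genes and for 91.9% of all tested genes, and the median log2 change was -0.90 over the 9 genes and -0.36 over all tested genes. These figures for the 9 genes also take *Agt* at its listed 0. The share of higher genes among all called was 40.8%, and 52.9% under quantile normalization and 57.3% after centring.

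Further genes of the pathway were followed as a list of 17, of which 9 passed the filter. In ADPKD against WT, the median log2 change of these 9 was 0.26, against 0.03 over all tested genes. Of the 9, 0 rose and 1 fell, against 14.2% and 12.5% of all tested genes. The gene that fell was *Klk1*, tissue kallikrein, a protease of the distal nephron that releases kinins, at 792 and 710 FPKM in WT and 149 and 25.5 FPKM in ADPKD (log2 -3.58, SE 0.75, limma adjusted p = 0.0216). The 2 values next lowest were those of *Atp6ap2*, the prorenin receptor (log2 -0.33), and *Lnpep*, the angiotensin IV receptor (log2 -0.05), and the highest were *Prcp* (log2 0.49) and *Ctsa* (log2 0.46), both carboxypeptidases, and *Thop1*, an endopeptidase (log2 0.43), none of which was called.

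After MMPP, 5 of these 9 genes were higher than in ADPKD and 2 lower, with a median log2 change of 1.27. Of all tested genes 27.9% were higher and 43.0% lower, 70.9% in all (58.2% after centring), with a median of -0.36. A count of 7 of 9 is therefore no result about these genes. *Klk1* was higher at 377 and 342 FPKM (log2 2.51, SE 0.75, limma adjusted p = 0.0236), as were *Agtrap*, which binds the type 1 receptor and promotes its uptake (log2 1.72), *Prep*, which cuts after proline (log2 1.41), *Atp6ap2* (log2 1.30) and *Thop1* (log2 1.27). *Ctsa*, also known as protective protein of the lysosome, was lower at 3.93 and 3.58 FPKM against 51.4 and 37.6 FPKM (log2 -3.24), and *Prcp* was lower (log2 -0.65), a call also lost with TMM factors (log2 -0.48) and quantile normalization (log2 -0.09). *Nln*, neurolysin, was not called (log2 -0.56). After centring by annotation 4 of the 9 were called in place of 7, *Klk1* (log2 3.99), *Thop1* (log2 0.79) and *Agtrap* (log2 0.61) higher and *Ctsa* (log2 -2.11) lower, while *Prep* (log2 0.25), *Atp6ap2* (log2 0.19) and *Prcp* (log2 -0.16) were not. Against WT, 4 were higher and 1 lower, with a median of 0.41, and 3 in all were called after centring. The shares of all tested genes were 30.1% higher and 43.8% lower, with a median of -0.36, and 62.5% were called after centring. In that comparison *Agtrap* (log2 1.98), *Thop1* (log2 1.70) and *Prep* (log2 1.63) were highest, *Ctsa* (log2 -2.78) was lowest, and *Klk1* (log2 -1.06) and *Prcp* (log2 -0.16) came next without a call and turned positive after centring (log2 0.34 and 0.25).

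Among the pathway genes under the filter were *Agtr1b*, *Agtr2*, *Cma1*, *Cpa3*, *Ctsg*, *Mas1* and *Mrgprd*. These 7, among them the remaining angiotensin receptors and the mast cell and neutrophil proteases that can form angiotensin II, were at 0.259 FPKM or less in every library.

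Other enzymes of the brush border were followed as a list of 9, of which 7 passed the filter, and *Xpnpep2* was among those under it. In ADPKD against WT 2 rose and 2 fell, with a median log2 change of 0.48. Among all tested genes 14.2% rose and 12.5% fell, with a median of 0.03. *Folh1*, glutamate carboxypeptidase, had 1.29 and 4.67 FPKM in WT and 12.9 and 12.7 FPKM in ADPKD (log2 1.94, SE 0.40, limma adjusted p = 0.021), and *Dpep1*, a dipeptidase, rose by log2 1.33 (SE 0.14, limma adjusted p = 0.0038). *Alpl*, alkaline phosphatase, fell from 49.9 and 37 FPKM to 19.3 and 4.31 FPKM (log2 -2.08, SE 0.60, limma adjusted p = 0.0525), and *Naalad2*, a relative of *Folh1*, fell by 1.40 on the log2 scale. *Ggt1*, gamma-glutamyltransferase (log2 -1.12), and *Mep1b* (log2 0.59) were not called.

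After MMPP, 4 of these 7 were higher than in ADPKD and 1 lower, with a median of 0.75. Among all tested genes 70.9% were called (58.2% after centring), 27.9% higher and 43.0% lower, with a median of -0.36. A count of 5 of 7 is thus no result about these enzymes. *Mep1b* encodes the beta subunit of meprin, the partner of the product of *Mep1a*, and in FPKM as deposited the 2 subunits were called in opposite directions. After centring the change of *Mep1a* was log2 -0.62 and not called. *Mep1b* was at 0.224 and 0.0615 FPKM in WT, 1.89 and 0.0238 FPKM in ADPKD, and 57.2 and 53.8 FPKM in ADPKD+MMPP (log2 5.04, SE 0.46, limma adjusted p = 0.000225 against ADPKD), while *Mep1a* was at 1.767 and 1.859 FPKM in the same treated libraries. *Alpl* was at 53.5 and 53.2 FPKM (log2 2.39, SE 0.60, limma adjusted p = 0.0122), *Dpep1* was higher by log2 1.11 and *Treh*, trehalase, by log2 0.75, a call lost under a common FPKM sum (log2 0.49). *Naalad2* was lower (log2 -1.32), and *Folh1* (log2 -0.16) and *Ggt1* (log2 0.60) were not called. After centring 6 of the 7 were called higher, *Mep1b* (log2 3.93), *Alpl* (log2 1.90), *Dpep1*, *Treh*, *Folh1* (log2 1.71) and *Ggt1*, and *Naalad2* was not called (log2 0.16). Against WT, 4 were higher (*Mep1b*, log2 5.63, *Dpep1*, log2 2.44, *Folh1*, log2 1.78, and *Treh*, log2 1.22) and 1 was lower (*Naalad2*, log2 -2.72), with a median of 1.22. *Ggt1* (log2 -0.51) and *Alpl* (log2 0.30, or -0.20 after centring) were not called. Among all tested genes 30.1% were higher than in WT and 43.8% lower, with a median of -0.36.

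**Figure D5:**
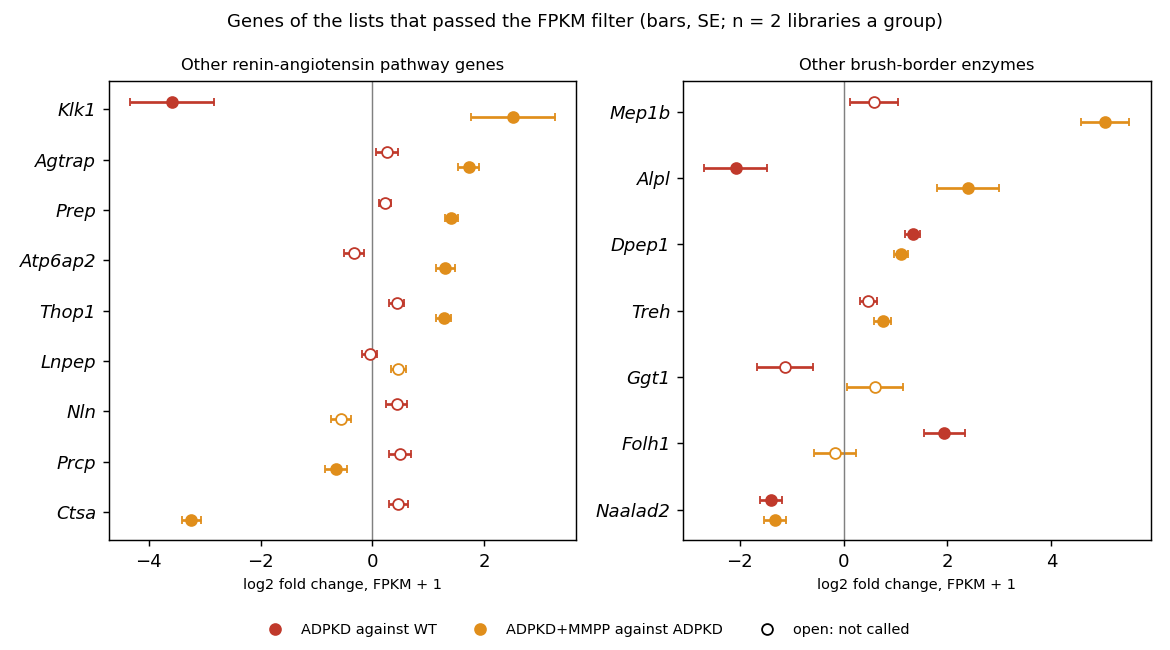
Log2 fold change of FPKM + 1 (horizontal axes, bars are SE, n = 2 libraries a group) of the tested genes of both further lists, in ADPKD against WT (red) and ADPKD+MMPP against ADPKD (orange), with open circles for changes not called. *Klk1* and *Alpl* lie low in ADPKD and high after MMPP, and *Mep1b* has the highest value after MMPP among these genes, as it also had under TMM, quantile and common-sum scaling, whereas after centring *Klk1* (log2 3.99) lay just above it (log2 3.93).

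The genes whose profiles over the 6 libraries were closest to those of the other members were *Fmo5*, *Kcnk6* and *Pigh* for *Ace*, each at a root mean square log2 difference of 0.07, and *Lrrc75b*, *Mrpl45* and *Pgam1* for *Ren1*, at 0.06, 0.09 and 0.10. *Tmem80*, *Septin10* and *Gfm1* were closest to *Mme*, at 0.03, 0.07 and 0.07. *Hk1*, *Asl* and *Pa2g4* were closest to *Anpep*, at 0.11, 0.11 and 0.12. The profiles of *Agt* and *Mep1a* had no neighbour as close, since the nearest genes were *Cgn*, *Lilr4b* and *Oasl1* for *Agt*, at 0.39, 0.43 and 0.45, and *Slc5a10*, *Gm22581* and *H2-Ab1* for *Mep1a*, at 0.32, 0.36 and 0.37. With 6 libraries in 3 groups such likeness describes a shared pattern of group means and little more. All closest profiles given here include the treated libraries, whose values moved with transcript annotation, so likeness can also reflect a like annotation. The profile of *Agt* and its distances rest in part on the listed 0 in both treated libraries, which can be a missing estimate.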

How the data were processed

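The authors aligned reads to GRCm38 (mm10) with HISAT2 2.1.0, counted them on genes with featureCounts 1.6.0 and deposited FPKM, 1 file per library. The annotation release and the FPKM step are not given in the sources used here. FPKM are not counts, so count-based tests were not run. Of the 55367 symbols, 53186 matched a single gene model of GENCODE vM21, the source of positions, transcripts and exon lengths. FPKM times exon length fell on whole reads (tolerance 0.05) for 98.14% to 99.25% of low values, which gave the depths.

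A gene was tested if 2 or more libraries reached 1 FPKM, using limma 3.58.1 (R 4.3.3) on log2(FPKM + 1) in one fit over 6 libraries, a scale that understates changes of low genes. The calls used the study's thresholds, a fold change of 1.5 and P of 0.05. The 9 genes, the lists (17 pathway genes, 9 brush-border enzymes, cell type markers) and the tests were chosen with earlier results of these data known. All 9 genes are named, with *Pkd1*, the 3 highest and 3 lowest changes of both further lists, *Atp6ap2*, and the 3 closest profiles of each gene. *Rpl17*, *Srp68*, *Akr1b7* and markers named beside results were chosen after their values were seen. Alternatives covered the pseudocount, filter, scaling (common sum, TMM, quantile), annotation centring over 12375 protein-coding genes, intensity trend, groups in the fit, thresholds, a replicate block and leaving out each library, where the library left alone in its group is assumed to vary like those of the other groups. The steps were tested on simulated data. Replicates of a group differed beyond sampling noise (mean chi-square over genes 14.9 for WT, 57.5 for ADPKD, 2.18 for ADPKD+MMPP). Depth sets the floor of each value, and 2 libraries per group limit the precision of each mean. Some genes that the lists or this rule include are not reported here.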

Additional observations from a re-analysis of the deposited data

How the results depend on the processing

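Of 459 changes of the 9 genes computed under alternatives, 421 kept their direction and their side of the thresholds, 15 lost a call, 11 gained one and 12 turned sign. Alternatives to the filter, trend, block, groups in the fit and thresholds leave the fold change as it was and cannot turn a sign. Leaving out a library of a group that is not compared repeats the fit of only the groups compared. The 459 values are thus not independent checks, and their count does not measure robustness. Changes of *Agt* against the treated libraries, taken at its listed 0, are among these and among the counts below. For causes that no value shows, the cause was not tested. The number of the 9 genes called ranged from 3 to 6 in ADPKD against WT as single libraries were left out, with 3 without WT replicate 2, from 3 to 7 in ADPKD+MMPP against ADPKD, with 3 without treated replicate 2, and from 5 to 6 in ADPKD+MMPP against WT. For the other pathway genes it ranged from 1 to 3, with 3 without ADPKD replicate 2, from 5 to 8, and from 5 to 6, and centring by annotation gave 4 for treated against untreated ADPKD and 3 for treated ADPKD against WT. For the other brush-border enzymes it ranged from 4 to 6, from 5 to 6, and was 5 throughout in the last comparison. Signs turned in ADPKD+MMPP against ADPKD for *Agtr1a* (common FPKM sum -0.05, centring -0.62, without ADPKD replicate 2 -0.59, without 1 library -0.59 to 1.04), *Mme* (common sum -0.07, without ADPKD replicate 2 -0.10, without 1 library -0.10 to 0.51) and *Enpep* (TMM 0.10, centring 1.39, without ADPKD replicate 1 0.62, without treated replicate 2 0.05, without 1 library -0.80 to 0.62), and in ADPKD+MMPP against WT for *Ace* (common sum -0.19), *Mme* (quantile 0.10) and *Mep1a* (centring 1.07). The median change of all tested genes in ADPKD+MMPP against ADPKD was -0.36 as deposited, -0.22 with TMM factors, -0.55 with a common sum, 0.1 under quantile normalization and 0.15 after centring.

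The labels do not say what the replicate numbers stand for, and the values below cannot tell whether same-numbered libraries were handled together. Deviations of same-numbered libraries correlated across genes at 0.129 between WT and ADPKD, -0.00796 between WT and ADPKD+MMPP and 0.0137 between ADPKD and ADPKD+MMPP, and with the replicate block 5, 5 and 5 of the 9 genes were called, with no call of theirs changed. The depth of 10.91 to 11.81 M reads after MMPP limits *Anpep*, at about 10 and 2 reads.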
